A study of Mus musculus with 6 samples.

Results

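Actin, non-muscle myosin, the proteins that decorate and crosslink actin filaments, the proteins that turn the filaments over, and 5 GTPases with the coactivator of serum response factor (SRF) were followed here as 1 set of 45 genes in a mouse mammary carcinoma line. The members were taken from a list of gene symbols drawn up with earlier results of these data known, and no threshold on a measured value entered the choice. All 45 symbols were found among the 24346 symbols of the deposited tables. For 39 of them the mean over the 6 libraries was at least 1 FPKM (fragments per length of transcript and per mapped total of the library), the lower limit for testing. The other 6, Acta2, Actg2, Tagln, Cnn1, Tpm2 and Myl9, stayed below 1 FPKM in every library and are described separately.

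The study sequenced messenger RNA of 4T1 cells, a line derived from a mouse breast tumour and used as a model of metastasis. One group carried the short hairpin RNA shRNA1 and a second group the short hairpin RNA shRNA3, both directed at AU021063, a long noncoding RNA. The WT group was mock transfected. Each group had 2 libraries. The labels name no cells with a non-targeting hairpin, so loss of AU021063 and the presence of a hairpin cannot be told apart, and no label states that replicate libraries came from cells grown apart. The p-values below therefore measure only the spread between libraries, which may be technical. In bulk RNA, fewer cells of a kind and less RNA per cell cannot be told apart.

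Actin monomers assemble into filaments that tropomyosins and calponins coat, that alpha-actinins, filamins and fascin bundle, and that non-muscle myosin II pulls on to give a cell its contractile force. Monomer-binding proteins such as profilin and the beta-thymosins, severing proteins such as cofilin and gelsolin, and nucleators such as the Arp2/3 complex and the formins set how fast filaments grow and shrink. SRF and its coactivator MRTF-A link this machinery to transcription: actin monomers hold MRTF-A in the cytoplasm, and when monomers are drawn into filaments, MRTF-A enters the nucleus and drives SRF target genes, many of which encode actin and its partners. SRF binds a short element called the CArG box.

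The promoters of the set were searched for that element, since the members include textbook SRF targets. In RefSeq windows of 300 bases on GRCm38.p6, running from 250 bases before to 50 bases after a gene's start, 40 of the 45 members had an entry. An exact CArG box, whose pattern is the same on both strands, was present in 4 of these 40 (10%), namely Cnn2, Actg1, Myl6 and Myl9, against 488 of 27025 genes (1.81%) over the whole table. In Cnn2 the first base of the box lay 56 bases before the start, in Actg1 90, in Myl6 50 and in Myl9 161. In Myl6 the box itself overlaps an annotated exon of that gene, so its window is not shown. The stretches below are the parts of the other 3 windows around the box that lie outside any annotated exon, with the promoter of Srf itself, added after its values were seen, as a gene with 2 boxes. They are written 5′ to 3′ along the gene's own strand, and the capitals mark the CArG box.
Cnn2, chr10:79988350-79988583, plus strand: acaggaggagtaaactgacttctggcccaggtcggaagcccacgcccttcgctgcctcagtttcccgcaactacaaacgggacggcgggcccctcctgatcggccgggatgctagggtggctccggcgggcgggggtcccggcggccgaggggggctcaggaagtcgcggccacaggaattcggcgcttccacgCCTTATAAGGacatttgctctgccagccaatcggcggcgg
Actg1, chr11:120348543-120348677, minus strand: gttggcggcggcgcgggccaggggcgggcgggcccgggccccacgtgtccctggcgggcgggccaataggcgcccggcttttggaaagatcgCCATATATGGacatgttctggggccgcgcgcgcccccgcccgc
Myl9, chr2:156775214-156775419, plus strand: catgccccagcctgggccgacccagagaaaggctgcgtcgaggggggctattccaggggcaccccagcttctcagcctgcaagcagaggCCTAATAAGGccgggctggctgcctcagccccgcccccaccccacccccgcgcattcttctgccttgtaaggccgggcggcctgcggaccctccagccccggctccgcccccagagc
Srf, chr17:46556176-46556412, minus strand: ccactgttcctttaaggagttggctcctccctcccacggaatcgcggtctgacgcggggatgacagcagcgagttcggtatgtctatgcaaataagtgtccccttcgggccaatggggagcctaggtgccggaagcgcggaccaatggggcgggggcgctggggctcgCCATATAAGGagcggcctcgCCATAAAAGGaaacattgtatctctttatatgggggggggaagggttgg

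A match in these letters is a description of the window and not a measured binding site. The members with a box did not share a level: Cnn2, Actg1 and Myl6 were among the abundant transcripts, whereas Myl9 was nearly silent.

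The libraries were near each other in size, and RNA quality was not measured here. Summed FPKM was 592420 and 582444 with shRNA1 and 604022 and 584445 with shRNA3, against 560862 and 568005 in WT cells. Every knockdown total thus lay above both WT totals. Per library 10998 to 11106 symbols reached 1 FPKM. Relative depth, read from the spacing of low values, ran from 86.8% to 105% of the first WT library. Replicates differed by a median of 4.40% in shRNA1, 4.32% in shRNA3 and 4.47% in WT cells over 6943 genes. AU021063 had 1.04 and 0.572 FPKM with shRNA1 and 0.785 and 0 FPKM with shRNA3, against 1.82 and 1.67 FPKM in WT cells. Its mean thus stood at 46.3% and 22.5% of the WT mean, with the libraries of the 2 hairpins overlapping. Its mean over the 6 libraries was below 1 FPKM, so its change was not tested. No detection limit was worked out for the 0. The carcinoma keratins Krt8 and Krt18 were abundant in every library, between 263 and 587 FPKM. Epcam, Cdh1 and Cldn4 were low and Krt14 was near 0.

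Most members were higher in the knockdown cells. Against WT, with both hairpins averaged, 25 of the 39 tested members rose, 1 fell and 13 did not pass the threshold of an adjusted p of 0.05 in limma. Of all 11079 genes tested, 50% passed, 24.1% higher and 25.9% lower, so a pass by itself was common and over all genes its direction was split almost evenly. The median log2 change of the members was 0.19, with a range of -0.17 to 1.14, beside -0.01 for all genes. In 25 of 39 members (64.1%) all 4 knockdown libraries lay above both WT libraries, and in 1 (2.56%) they lay below, beside 22.2% and 25.5% of all genes. Among all genes that passed, the median size of change was 0.30 on the log2 scale. The members' median of 0.19 keeps the sign and includes members that did not pass, so it cannot be set against that size. When the 4 knockdown libraries were treated as 1 group, which counts the difference between hairpins as spread, 12 members rose and none fell, and 1513 genes passed in all. The 14 calls lost in that fit were those of Actn4, Arpc5, Cnn2, Cnn3, Msn, Myh10, Myl6, Rdx, Rhoa, Rhob, Tagln2, Tmsb4x, Tpm1 and Wdr1, with adjusted p from 0.0557 for Tagln2 to 0.403 for Wdr1 in limma. When every library was rescaled to the same total, 23 members rose and 2 fell, and over all genes 1945 were higher and 3722 lower.

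**Figure D1:**
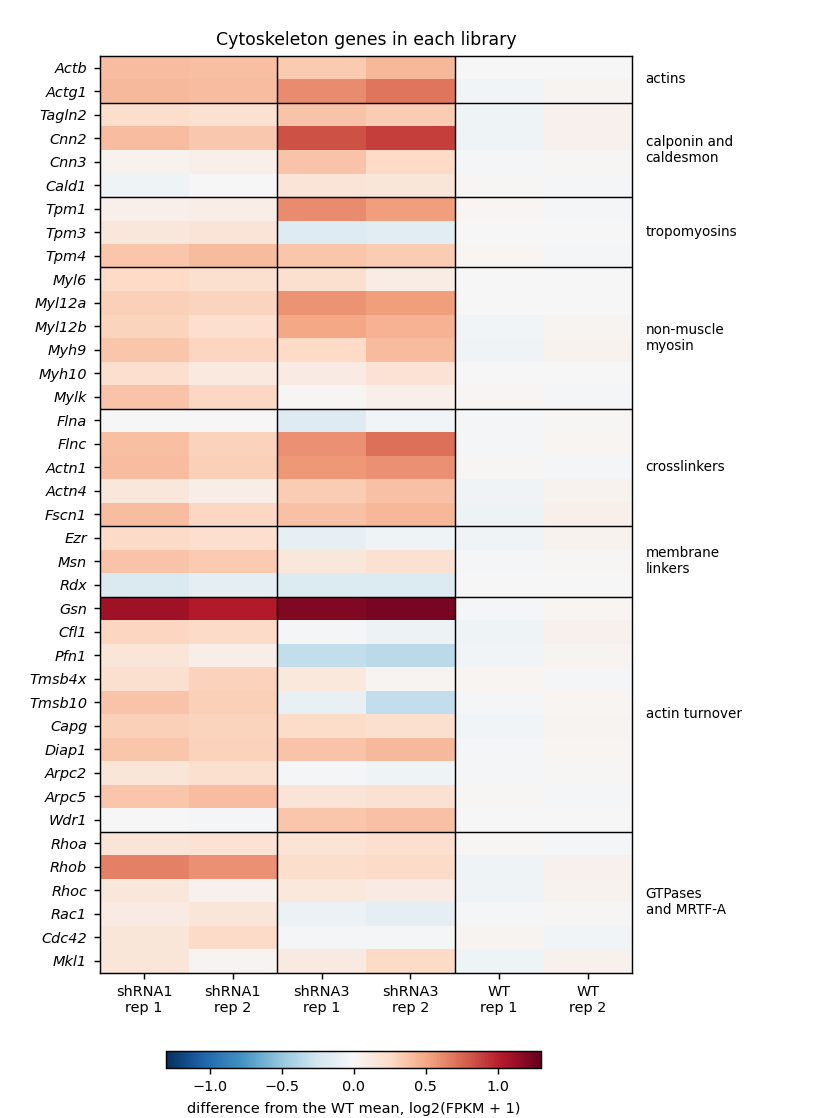
Difference of each library from the WT mean on the log2(FPKM + 1) scale, by colour, for the 39 tested members (rows, grouped by role) in the 6 libraries (columns; shRNA1, shRNA3, then WT). Red marks higher and blue lower than the WT mean; Gsn is the darkest row, and Tpm3, Pfn1 and Tmsb10 turn from red with shRNA1 to blue with shRNA3.

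Both cytoplasmic actins rose with both hairpins. Actb (beta-actin, chr5:142903115-142906754) had 1260 and 1247 FPKM with shRNA1 and 1203 and 1285 FPKM with shRNA3, against 952 and 954 FPKM in WT cells. Every knockdown library lay above both WT libraries, and the hairpins overlapped. Actg1 (gamma-actin, chr11:120345690-120348542) had 1234 and 1218 FPKM with shRNA1 and 1409 and 1493 FPKM with shRNA3, against 896 and 943 FPKM in WT cells. Here the 3 groups were fully separate, with shRNA3 highest. The log2 change of Actb over both hairpins was 0.39 ± 0.038 (SE; limma adjusted p = 1.25e-04) and that of Actg1 0.54 ± 0.04 (adjusted p = 3.46e-05). Between the hairpins, shRNA3 minus shRNA1, Actg1 differed by 0.24 ± 0.046 (adjusted p = 0.00426), while Actb differed by -0.01, with an interval of -0.11 to 0.09 (adjusted p = 0.853). The ratio of Actg1 to Actb was accordingly 0.98 and 0.977 with shRNA1 and 1.17 and 1.16 with shRNA3, against 0.941 and 0.989 in WT cells. Together the 2 actins took 0.421% and 0.423% of all FPKM with shRNA1 and 0.432% and 0.475% with shRNA3, against 0.329% and 0.334% in WT cells. Of the 50-base stretches in the longest Actg1 transcript 56.7% also occur in other annotated genes, mostly the processed copy Gm12715, and 14.2% of those in Actb, so reads could be exchanged with copies. How the authors placed such reads is not stated in the labels.

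The tropomyosins, which lie along the filament and decide which myosins and severing proteins reach it, changed in different directions by gene and by hairpin. Tpm1 (chr9:67022590-67049406) had 588.5 and 594 FPKM with shRNA1 and 856 and 819 FPKM with shRNA3, against 571 and 551 FPKM in WT cells. It was high in the shRNA3 libraries, and the shRNA1 libraries sat just above WT. With shRNA3 Tpm1 rose by 0.58 ± 0.041 on the log2 scale (limma adjusted p = 2.43e-05), with shRNA1 its change was 0.08 ± 0.041 (adjusted p = 0.183), and the hairpins differed by 0.50 ± 0.041 (adjusted p = 1.03e-04). Tpm4 (chr8:72134975-72153142) had 363 and 374 FPKM with shRNA1 and 362.5 and 354 FPKM with shRNA3, against 287 and 277 FPKM in WT cells. It rose alike in both: 0.39 ± 0.04 with shRNA1 (adjusted p = 3.03e-04) and 0.34 ± 0.04 with shRNA3 (adjusted p = 2.58e-04), with a difference of -0.04 and an interval of -0.13 to 0.05.

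Tpm3 (chr3:90072649-90100902) had 230.1 and 232.5 FPKM with shRNA1 and 185 and 187 FPKM with shRNA3, against 209 and 206 FPKM in WT cells. Its libraries fell into 3 separate levels with WT in the middle. It rose by 0.16 ± 0.037 with shRNA1 (limma adjusted p = 0.013), it fell by 0.16 on the log2 scale with shRNA3 (adjusted p = 0.00727), and the hairpins differed by -0.31 ± 0.037 (adjusted p = 4.92e-04). The rise with shRNA1 was not called without WT replicate 2 (0.15, adjusted p = 0.0658), shRNA1 replicate 1 (0.16, adjusted p = 0.0513) or shRNA1 replicate 2 (0.15, adjusted p = 0.0677), nor under quantile normalization (0.09, adjusted p = 0.0956) or same-total scaling (0.10, adjusted p = 0.0989). Of its 50-base stretches, 62.4% also occur in the copy Tpm3-rs7. As a share of the FPKM of all tropomyosin genes, Tpm1 made up 49.8% and 49.5% with shRNA1 and 61.0% and 60.2% with shRNA3, against 53.5% and 53.3% in WT cells. The share of Tpm3 was 19.5% and 19.4% with shRNA1 and 13.2% and 13.7% with shRNA3, against 19.6% and 19.9% in WT cells. That of Tpm4 was 30.7% and 31.2% with shRNA1 and 25.8% and 26.0% with shRNA3, against 26.9% and 26.8% in WT cells. The tropomyosin pool thus had the largest Tpm1 share and the smallest Tpm3 share in the shRNA3 libraries.

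**Figure D2:**
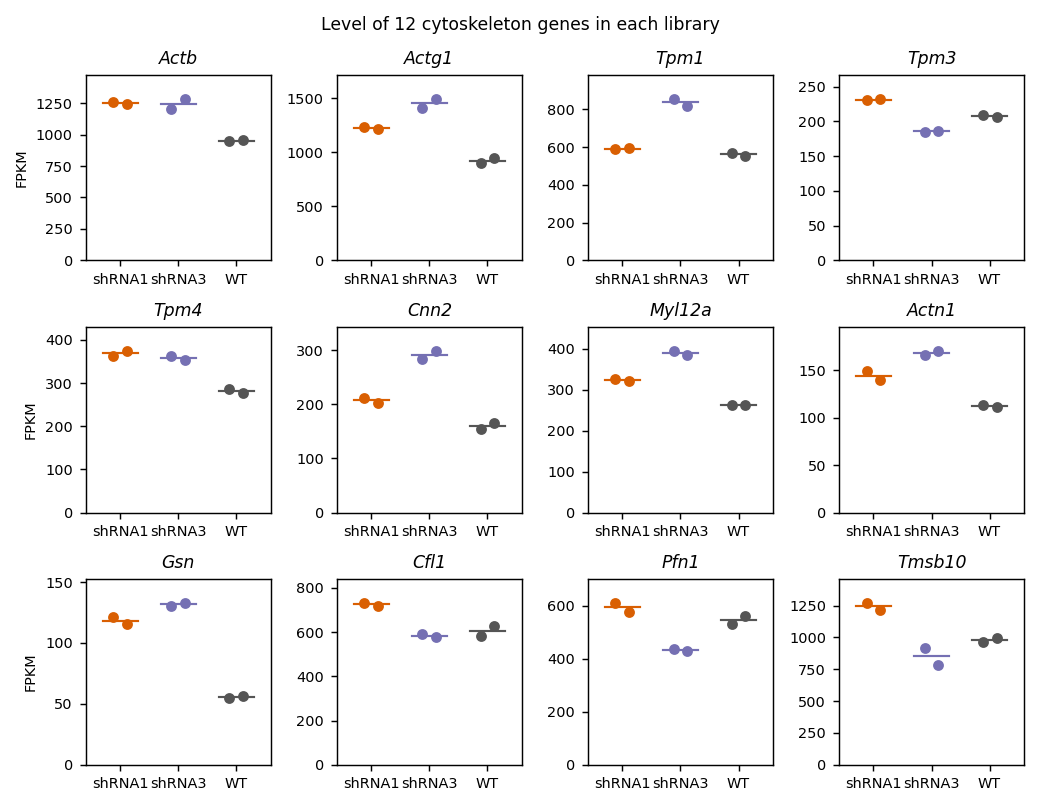
FPKM (linear axes from 0) of 12 members in each library, for shRNA1, shRNA3 and WT cells; points are libraries and lines group means. Actb and Tpm4 stand above WT to a like degree with both hairpins, Tpm1 stands apart with shRNA3, and Tpm3, Pfn1 and Tmsb10 lie above the WT mean with shRNA1 and below it with shRNA3.

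Among the calponins and caldesmon, which bind filaments beside tropomyosin, all 4 tested genes rose with shRNA3, where 27.4% of all genes were called higher, and 2 of them with shRNA1, where 17.6% were. Cnn2 (calponin 2, chr10:79988584-79996062) had 211 and 203 FPKM with shRNA1 and 284 and 298.5 FPKM with shRNA3, against 154 and 165 FPKM in WT cells. The 3 groups did not overlap. Its log2 change was 0.38 ± 0.05 with shRNA1 (limma adjusted p = 9.49e-04) and 0.87 ± 0.05 with shRNA3 (adjusted p = 9.20e-06), and the hairpins differed by 0.49 ± 0.05 (adjusted p = 2.51e-04). Cnn3 (calponin 3) rose with shRNA3 by 0.32 (adjusted p = 7.97e-04), and with shRNA1 its change was 0.06 (adjusted p = 0.376).

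Tagln2 (transgelin 2) had 486 and 476.5 FPKM with shRNA1 and 536 and 524 FPKM with shRNA3, against 399 and 433 FPKM in WT cells. It rose by 0.21 with shRNA1 (limma adjusted p = 0.011) and by 0.35 with shRNA3 (adjusted p = 5.19e-04). The smaller rise was not called without WT replicate 1 (0.15, adjusted p = 0.0717) or shRNA1 replicate 1 (0.20, adjusted p = 0.0645), nor under quantile normalization, which moved it most (0.08, adjusted p = 0.251). Cald1 (caldesmon) had 233 and 243 FPKM with shRNA1 and 273.5 and 270.4 FPKM with shRNA3, against 245 and 241 FPKM in WT cells. It rose with shRNA3 by 0.16 (adjusted p = 0.00922, or 0.0527 for 0.15 without WT replicate 2, and 0.119 for 0.09 at the same total), while the shRNA1 libraries overlapped WT.

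Of the 6 tested genes of non-muscle myosin II and its kinase, all 6 rose with shRNA1 and 5 with shRNA3, beside 17.6% and 27.4% of all genes called higher. The calls of Myl6, Myh10 and Mylk were lost under several alternatives. The regulatory light chains moved as a pair. Myl12a had 327.5 and 322 FPKM with shRNA1 and 395 and 384.5 FPKM with shRNA3, against 262 and 264 FPKM in WT cells. Myl12b had 403 and 384 FPKM with shRNA1 and 468 and 451 FPKM with shRNA3, against 322.5 and 339 FPKM in WT cells. Both genes showed 3 separate levels with shRNA3 highest. Over both hairpins the log2 change was 0.43 ± 0.032 for Myl12a (limma adjusted p = 3.64e-05) and 0.36 ± 0.039 for Myl12b (adjusted p = 2.10e-04), and the hairpins differed by 0.26 and 0.22 (adjusted p = 0.00118 and 0.00588). Since 29.6% of the 50-base stretches of Myl12a also occur in other genes, nearly all in Myl12b, reads could be exchanged within the pair.

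Myl6, the essential light chain, had 988 and 948 FPKM with shRNA1 and 952 and 880 FPKM with shRNA3, against 822 and 825 FPKM in WT cells. It rose by 0.23 with shRNA1 (limma adjusted p = 0.00753, or 0.058 for 0.20 without shRNA1 replicate 1) and by 0.15 with shRNA3 (adjusted p = 0.0266). The rise with shRNA3 was not called without WT replicate 1 (0.15, adjusted p = 0.103), WT replicate 2 (0.16, adjusted p = 0.0941) or shRNA3 replicate 1 (0.10, adjusted p = 0.127), nor without a filter (0.15, adjusted p = 0.0687) or at the same total (0.08, adjusted p = 0.102). Under quantile normalization the change of Myl6 was 0.07 with shRNA1 (adjusted p = 0.178) and 0.02 with shRNA3 (adjusted p = 0.682), with neither called. Of the heavy chains, Myh9 averaged 181 ± 7.62 FPKM with shRNA1 and 183 ± 14.1 FPKM with shRNA3, against 145 ± 6.71 FPKM in WT cells (SD, n = 2 each), a log2 change over both hairpins of 0.33 (adjusted p = 0.00165). Myh10, the less abundant heavy chain at 46.5 to 54.3 FPKM, rose by 0.16 (adjusted p = 0.0167), a call that was lost without WT replicate 1 (adjusted p = 0.0805) or WT replicate 2 (adjusted p = 0.0701) and at the same total (0.10, adjusted p = 0.133). Its calls with each hairpin alone were also lost without certain single libraries, with adjusted p up to 0.166 for shRNA1 (0.13) and 0.186 for shRNA3 (0.11), and at the same total (0.11 and 0.08, adjusted p = 0.146 and 0.27), under quantile normalization (0.16 and 0.14, adjusted p = 0.0506 and 0.0579) and without a filter (adjusted p = 0.0513 and 0.0501). Mylk, the light chain kinase, was near 2 FPKM. Its rise with shRNA1, 0.32 (adjusted p = 0.036), was lost when any of 5 single libraries was left out, with adjusted p up to 0.146 and changes of 0.27 to 0.37, and under quantile normalization or same-total scaling (0.28 in both, adjusted p = 0.0624 and 0.0625).

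Of the 5 crosslinkers 4 rose over both hairpins, beside 24.1% of all genes called higher. Actn1 (alpha-actinin 1) had 149 and 139.5 FPKM with shRNA1 and 166 and 170.3 FPKM with shRNA3, against 113 and 111 FPKM in WT cells. Flnc (filamin C, the muscle-enriched filamin) had 24.4 and 22.8 FPKM with shRNA1 and 28.3 and 30.8 FPKM with shRNA3, against 18.03 and 18.67 FPKM in WT cells. In both genes the 3 groups were separate. The log2 change over both hairpins was 0.47 ± 0.039 for Actn1 (limma adjusted p = 5.84e-05) and 0.50 ± 0.053 for Flnc (adjusted p = 1.92e-04), and each was higher with shRNA3 than with shRNA1 (0.22, adjusted p = 0.00567, and 0.31, adjusted p = 0.00548). Flna (filamin A), at 126 to 143.5 FPKM over the 6 libraries, gave a log2 difference of -0.05 with an interval of -0.15 to 0.05 (adjusted p = 0.395). Its shRNA1 libraries lay within the WT range and its shRNA3 libraries below it. With shRNA3 alone the change of Flna was -0.10 (adjusted p = 0.13), and it was called lower under quantile normalization (-0.15, adjusted p = 0.0392), at the same total (-0.17, adjusted p = 0.0322) and without shRNA3 replicate 2 (-0.17, adjusted p = 0.0296).

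Fscn1 (fascin, the bundler of filopodia and invadopodia) had 221 and 201 FPKM with shRNA1 and 218 and 226 FPKM with shRNA3, against 159 and 175.5 FPKM in WT cells. It rose by 0.37 ± 0.053 over both hairpins (limma adjusted p = 8.58e-04), with no difference called between them (0.08, interval -0.07 to 0.22). Actn4 (alpha-actinin 4) had 168 and 161 FPKM with shRNA1 and 191 and 197 FPKM with shRNA3, against 147 and 156 FPKM in WT cells. It rose with shRNA3 by 0.35 (adjusted p = 4.52e-04), and its change with shRNA1 was 0.12 (adjusted p = 0.0867). Its call over both hairpins, 0.23 (adjusted p = 0.00205), was lost with the 4 knockdown libraries as 1 group (adjusted p = 0.148).

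The 3 ezrin, radixin and moesin genes, whose products tether filaments to the plasma membrane, went separate ways. Msn (moesin) had 217 and 214 FPKM with shRNA1 and 187 and 193 FPKM with shRNA3, against 166 and 170.2 FPKM in WT cells. It rose by 0.26 ± 0.034 over both hairpins (limma adjusted p = 5.11e-04) and less with shRNA3 than with shRNA1 (-0.18, adjusted p = 0.0076). With shRNA3 alone its rise of 0.17 (adjusted p = 0.00663) was not called at the same total (0.10, adjusted p = 0.0858). Ezr (ezrin) had 98.5 and 96.5 FPKM with shRNA1 and 76.8 and 79.5 FPKM with shRNA3, against 80.0 and 85.8 FPKM in WT cells. The shRNA1 libraries lay above WT and the shRNA3 libraries just below it: Ezr rose with shRNA1 by 0.23 (adjusted p = 0.00774), and the hairpins differed by -0.32 (adjusted p = 0.00162). At the same total Ezr was also called lower with shRNA3 (-0.16, adjusted p = 0.0286). Rdx (radixin) was the 1 member called lower over both hairpins in the fit used throughout. It had 37.1 and 38.8 FPKM with shRNA1 and 37.2 and 37.4 FPKM with shRNA3, against 42.3 and 42.3 FPKM in WT cells, and it fell by 0.17 on the log2 scale (adjusted p = 0.00925, or 0.052 without WT replicate 1). For shRNA1 alone its fall of 0.15 (adjusted p = 0.0313) was lost with any 1 of the 6 libraries left out, with changes of -0.19 to -0.12 and adjusted p up to 0.152, and for shRNA3 alone its fall of 0.18 was lost without shRNA3 replicate 1 (adjusted p = 0.0502).

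Among the 10 turnover genes, Gsn (gelsolin, which severs filaments and caps their growing ends, chr2:35256380-35307892) showed the largest change of any member. It had 122 and 115 FPKM with shRNA1 and 131 and 133 FPKM with shRNA3, against 55.1 and 56.8 FPKM in WT cells. The shRNA1 mean was 2.12 times and the shRNA3 mean 2.35 times the WT mean, and no knockdown library came near WT. The log2 change was 1.07 ± 0.044 with shRNA1 (limma adjusted p = 2.93e-06) and 1.22 ± 0.044 with shRNA3 (adjusted p = 1.09e-06). The difference between hairpins, 0.15 (adjusted p = 0.0257), was not called without shRNA1 replicate 2 (0.11, adjusted p = 0.144), shRNA3 replicate 1 (0.16, adjusted p = 0.0733) or shRNA3 replicate 2 (0.14, adjusted p = 0.112). The related capping protein gene Capg rose by 0.26 over both hairpins (adjusted p = 7.52e-04) and the formin gene Diap1, which elongates unbranched filaments, by 0.36 (adjusted p = 6.74e-04). For neither was a difference between hairpins called.

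The monomer-binding and depolymerising members, by contrast, split by hairpin. Pfn1 (profilin 1, which delivers monomers to growing ends) had 610.1 and 579 FPKM with shRNA1 and 439 and 428 FPKM with shRNA3, against 533 and 561 FPKM in WT cells. It fell by 0.33 on the log2 scale with shRNA3 (limma adjusted p = 5.24e-04), its change with shRNA1 was 0.12 (adjusted p = 0.0736), and the hairpins differed by -0.45 ± 0.045 (adjusted p = 2.31e-04). Over both hairpins the change of Pfn1 was -0.11 and just missed the threshold (adjusted p = 0.051). There it was called lower under quantile normalization (-0.30, adjusted p = 2.58e-04) and at the same total (-0.17, adjusted p = 0.00257). Cfl1 (cofilin 1) averaged 725.5 ± 7.73 FPKM with shRNA1 and 584 ± 10.7 FPKM with shRNA3, against 605 ± 32.1 FPKM in WT cells (SD, n = 2 each). It rose with shRNA1 by 0.26 (adjusted p = 0.00362), and its shRNA3 libraries overlapped WT (-0.05, adjusted p = 0.397). Both values depended on scaling. Under quantile normalization the rise of Cfl1 with shRNA1 was not called (0.07, adjusted p = 0.238), and with shRNA3 it was called lower under quantile normalization (-0.26, adjusted p = 0.0012) and at the same total (-0.12, adjusted p = 0.0275). Wdr1, the cofactor with which cofilin takes filaments apart, had the opposite pattern: 81.4 and 80.9 FPKM with shRNA1 and 105 and 107 FPKM with shRNA3, against 82.3 and 81.7 FPKM in WT cells, with a rise of 0.37 for shRNA3 (adjusted p = 1.54e-04).

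The beta-thymosins hold monomers in reserve and were the most abundant members with the actins. Tmsb4x had 1447 and 1547 FPKM with shRNA1 and 1377 and 1289 FPKM with shRNA3, against 1275 and 1232 FPKM in WT cells. It rose with shRNA1 by 0.26 (limma adjusted p = 0.00668), a call lost without WT replicate 2 (0.23, adjusted p = 0.0507) or shRNA1 replicate 2 (0.21, adjusted p = 0.056) and under quantile normalization (0.09, adjusted p = 0.158). Its change over both hairpins was 0.17 (adjusted p = 0.0132), or 0.15 (adjusted p = 0.109) without WT replicate 2, or 0.11 (adjusted p = 0.0527) at the same total, and its direction turned under quantile normalization (-0.02). Tmsb10 had 1269 and 1218 FPKM with shRNA1 and 919 and 783 FPKM with shRNA3, against 965 and 995 FPKM in WT cells. The shRNA1 libraries were the highest and the shRNA3 libraries the lowest, and the hairpins differed by -0.55 ± 0.07 (adjusted p = 7.43e-04). Tmsb10 rose with shRNA1 by 0.34 (adjusted p = 0.00743, or 0.0502 for 0.31 without shRNA1 replicate 1). It fell with shRNA3 by 0.21 on the log2 scale (adjusted p = 0.0356), a call lost when either WT library, either shRNA1 library or shRNA3 replicate 2 was left out, and without that last library the change was -0.09 (adjusted p = 0.154). It was also lost without a filter (adjusted p = 0.103). Copies such as Gm9844 share 43.5% of its 50-base stretches.

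As a ratio, Tmsb10 to Tmsb4x was 0.877 and 0.788 with shRNA1 and 0.667 and 0.607 with shRNA3, against 0.757 and 0.808 in WT cells. The summed FPKM of Cfl1 and Pfn1 over that of Actb and Actg1 was 0.538 and 0.527 with shRNA1 and 0.395 and 0.362 with shRNA3, against 0.603 and 0.627 in WT cells. The 3 groups did not overlap in this second ratio. Of the Arp2/3 subunits, Arpc5 rose over both hairpins by 0.28 (limma adjusted p = 4.42e-04), and its rise with shRNA3, 0.18, was not called at the same total (0.11, adjusted p = 0.0871). Arpc2 rose with shRNA1 by 0.18 (adjusted p = 0.00919), a call lost without WT replicate 1 (0.17, adjusted p = 0.0535) or shRNA1 replicate 2 (0.16, adjusted p = 0.0608). At the same total Arpc2 was called lower with shRNA3 (-0.11, adjusted p = 0.0431). Both were lower with shRNA3 than with shRNA1, with differences of -0.20 for Arpc5 (adjusted p = 0.00626) and -0.22 for Arpc2 (adjusted p = 0.00315).

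Of the 5 GTPase genes of the set, Rhob had the largest change. It had 77.9 and 74.3 FPKM with shRNA1 and 57.8 and 58.5 FPKM with shRNA3, against 47.2 and 51.0 FPKM in WT cells. Its groups were separate with shRNA1 highest: the log2 change was 0.62 ± 0.052 with shRNA1 (limma adjusted p = 9.53e-05) and 0.24 ± 0.052 with shRNA3 (adjusted p = 0.00501), and the hairpins differed by -0.38 (adjusted p = 9.32e-04). Rhoa had 390.5 and 398 FPKM with shRNA1 and 393 and 404 FPKM with shRNA3, against 351 and 346 FPKM in WT cells, and it rose by 0.19 over both hairpins (adjusted p = 0.00237). That call of Rhoa was lost under quantile normalization (0.09, adjusted p = 0.11) and with the 4 knockdown libraries as 1 group (adjusted p = 0.0662). Its rise with shRNA1, 0.18, was lost without WT replicate 2 (adjusted p = 0.0536) or shRNA1 replicate 2 (adjusted p = 0.0574), under quantile normalization (0.08, adjusted p = 0.224) and at the same total (0.12, adjusted p = 0.0578). With shRNA3 its rise of 0.19 was lost under quantile normalization (0.10, adjusted p = 0.118).

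Rhoc had 456 and 426 FPKM with shRNA1 and 454 and 442 FPKM with shRNA3, against 399.5 and 423 FPKM in WT cells. The knockdown libraries lay above WT by little, and its log2 change of 0.11 missed the threshold (limma adjusted p = 0.0571). With shRNA1 replicate 2 left out it was called higher (0.14, adjusted p = 0.0406), as it was under median-of-ratios scaling (0.12, adjusted p = 0.0399), where the change of Rhoc with shRNA3 alone passed too (0.13, adjusted p = 0.0478). Rac1 and Cdc42, the GTPases of lamellipodia and filopodia, rose with shRNA1 by 0.13 and 0.21 (adjusted p = 0.0389 and 0.0108) and were lower with shRNA3 than with shRNA1, with differences of -0.23 and -0.22 (adjusted p = 0.00328 and 0.00628). The call for Rac1 with shRNA1 was lost with any of 5 single libraries left out, with changes of 0.10 to 0.16 and adjusted p up to 0.189, and that for Cdc42 without WT replicate 2 (0.17, adjusted p = 0.0657) or shRNA1 replicate 2 (0.16, adjusted p = 0.0704) and under quantile normalization (0.14, adjusted p = 0.0679). For Rac1 the change with shRNA1 was 0.06 under quantile normalization and 0.07 at the same total (adjusted p = 0.264 and 0.214). In these 2 settings Rac1 was called lower with shRNA3 (-0.16 and -0.17, adjusted p = 0.00909 and 0.00842), where its reported change was -0.10 (adjusted p = 0.07). Mkl1, the symbol of MRTF-A in the files, averaged 10.2 ± 0.658 FPKM with shRNA1 and 11.0 ± 0.82 FPKM with shRNA3, against 9.55 ± 0.557 FPKM in WT cells (SD, n = 2 each). Its log2 change over both hairpins was 0.14 with an interval of -0.01 to 0.30 (adjusted p = 0.116).

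The 6 members below 1 FPKM are mostly the smooth-muscle forms of the abundant genes above, and none passed the filter, so no test was made. Where the steps of the low values allowed it, they were read as the smallest whole numbers of fragments that match within 0.1. Tagln (transgelin) had 0 and 0.051 FPKM with shRNA1 and 0.464 and 0.746 FPKM with shRNA3, against 0.267 and 0.135 FPKM in WT cells, or 0 and 1 fragments (where 0 allows up to 0.14 FPKM), 11 and 15 fragments, and 6 and 3 fragments. Cnn1 (calponin 1) had 0.072 and 0.159 FPKM with shRNA1 and 0.228 and 0.5 FPKM with shRNA3, against 0.035 and 0.070 FPKM in WT cells, that is 6, 20 and 3 fragments per group. For these genes and Myl9 the shRNA3 libraries were the highest. Myl9, the smooth-muscle regulatory light chain, had 0.296 and 0.162 FPKM with shRNA1 and 0.533 and 0.393 FPKM with shRNA3, against 0.070 and 0.213 FPKM in WT cells.

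Acta2 (alpha smooth-muscle actin) had 0.027 and 0.030 FPKM with shRNA1 and 0.074 and 0.029 FPKM with shRNA3, against 0 and 0.052 FPKM in WT cells, at most 3 fragments in a library (the 0 allows up to 0.0776 FPKM). Actg2 (gamma smooth-muscle actin) had 0.263 and 0.124 FPKM with shRNA3, or 5 and 2 fragments, and was listed at 0 in both shRNA1 and both WT libraries, where 0 fragments allow up to 0.175 and 0.192 FPKM and up to 0.166 and 0.168 FPKM (3 fragments per library, counting error only). Tpm2 had 0.994 and 0.371 FPKM with shRNA1 and 0.550 and 0.468 FPKM with shRNA3, against 0.290 and 0.456 FPKM in WT cells, with all groups overlapping. Of the 4 actin genes of the set, Actb and Actg1 thus made up nearly all of the FPKM in every library.

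**Figure D3:**
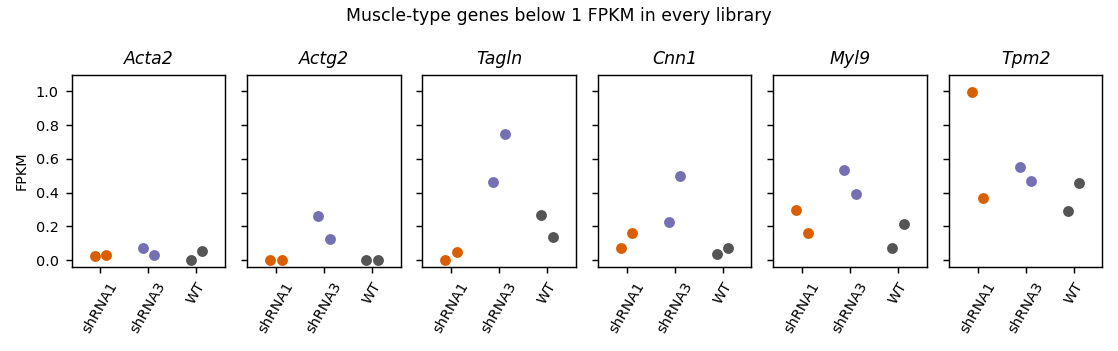
FPKM of the 6 members that stayed below 1 FPKM in every library (linear axes, shared scale), with 1 point per library for shRNA1, shRNA3 and WT cells. Tagln and Cnn1 have their highest points in the shRNA3 libraries, at 0.746 and 0.5 FPKM, while Acta2 stays below 0.1 FPKM throughout.

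Muscle markers were mostly absent. Of 10, Myod1 and Myog were at 0 in all libraries and 3 had a mean of at least 1 FPKM (Smtn, Tnnt2 and Synpo2). The sum over the 10 was 132 and 124 FPKM with shRNA1 and 109 and 110 FPKM with shRNA3, against 64.4 and 70.9 FPKM in WT cells. Smtn (smoothelin, an actin-binding protein) made up most of it and rose by 0.87 (limma adjusted p = 2.48e-05), while Tnnt2 and Synpo2 were not called against WT (-0.06 and 0.30, adjusted p = 0.778 and 0.0549). Haematopoietic markers summed to 40.2 to 44.9 FPKM in knockdown cells and 26.0 to 29.4 FPKM in WT cells, nearly all from Cd68 and Cd14, with Ptprc, Cd3e, Itgam and Tyrobp at 0 in every library. Cd68, a lysosomal protein gene, rose by 1.59 over both hairpins (adjusted p = 1.65e-06), whereas Cd14 fell with shRNA3 (-0.46, adjusted p = 0.00421) and was lower there than with shRNA1 (-0.72, adjusted p = 8.66e-04). The endothelial list summed to at most 0.194 FPKM in any library. Fibroblast markers summed to 39.7 to 43.3 FPKM in knockdown cells and 50.5 to 50.7 FPKM in WT cells, with Col3a1 and Thy1 at 0. Nearly all of that sum was Pdgfra, which fell by 0.30 over both hairpins (adjusted p = 5.14e-04). Col1a1 went the other way, with means 2.05 times WT with shRNA1 and 2.71 times WT with shRNA3 (adjusted p = 0.0111 and 9.65e-04), at 1.43 to 2.17 FPKM in knockdown cells and 0.721 and 0.743 FPKM in WT cells. Epithelial markers summed to 1078 and 1009 FPKM with shRNA1 and 732 and 727 FPKM with shRNA3, against 922 and 955 FPKM in WT cells, lower with shRNA3 than with shRNA1, the direction in which Pfn1 and Tmsb10 differed. That sum was mostly Krt8 and Krt18. Among the low markers of the list, Epcam, at 2.04 to 5.14 FPKM, was higher with both hairpins (0.80 with shRNA1 and 0.46 with shRNA3, limma adjusted p = 0.00266 and 0.0184). Cldn4 went the other way. It had 2.17 and 1.19 FPKM with shRNA1 and 2.46 and 2.18 FPKM with shRNA3, against 2.83 and 2.82 FPKM in WT cells. The part of these lists in the members' changes was not tested.

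Most members were also higher with each hairpin taken alone. With shRNA1 29 members rose and 1 fell, and 36.0% of all genes passed (17.6% higher, 18.4% lower). With shRNA3 25 rose and 4 fell, and 55.2% of all genes passed (27.4% higher, 27.8% lower). These 4 were Tpm3, Rdx, Pfn1 and Tmsb10. The median log2 change of the members was 0.25 with shRNA1 and 0.19 with shRNA3. Both counts depended on scaling. With shRNA1 19 members rose under quantile normalization, with a median of 0.16, and 24 at the same total. With shRNA3, with every library rescaled to the same total 20 members rose and 9 fell, and under quantile normalization 22 rose and 8 fell. Both comparisons use the same 2 WT libraries, so what they share is not independent. As shares of total FPKM the 45 members made up 2.35% and 2.37% with shRNA1 and 2.27% and 2.32% with shRNA3, against 2.04% and 2.05% in WT cells.

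The direct comparison of shRNA3 with shRNA1 gave a split that ran unevenly over the roles. Of the 39 members 13 were higher and 13 lower with shRNA3, with 42.5% of all genes passing (22.0% higher, 20.5% lower), and the median difference was -0.01 beside 0.01 for all genes. Of the 20 tested genes of the filaments themselves (actins, tropomyosins, calponins with caldesmon, myosins and crosslinkers) 11 were higher and 2 lower with shRNA3, and the median difference was 0.17. The 2 lower ones were Tpm3 and Mylk. Of the 10 turnover genes 2 were higher (Gsn and Wdr1) and 6 lower (Pfn1, Cfl1, Tmsb4x, Tmsb10, Arpc2 and Arpc5), with a median of -0.18. Of the 3 membrane linkers 2 were lower. This division was seen in the values and carries no test of its own. The largest differences were those of Tpm1 at 0.50 and Tmsb10 at -0.55. Of the 26 calls 4, those of Gsn, Mylk, Tagln2 and Tmsb4x, were lost when certain single libraries were left out. The call of Mylk was lost with any 1 of the 6 libraries left out, with changes of -0.33 to -0.23. It was also lost with either other pseudocount, under quantile normalization and at the same total. The same held with the replicate number as a block and in the fit of only the 2 groups compared.

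**Figure D4:**
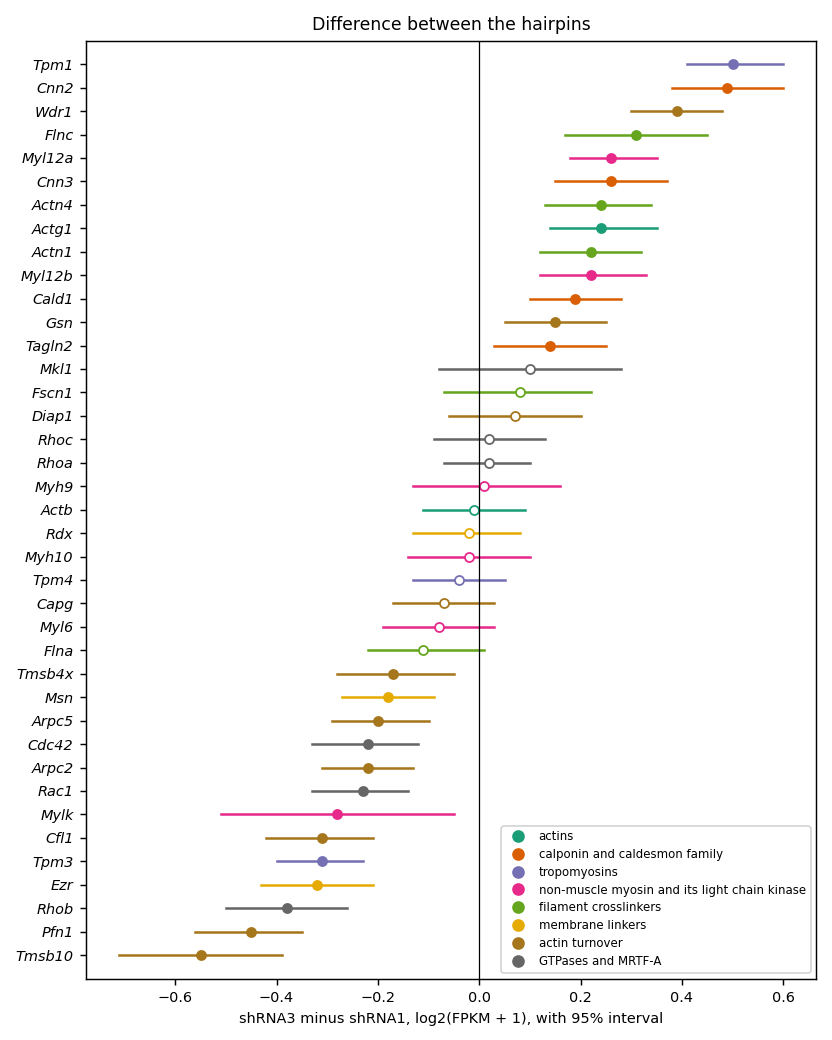
Difference between the hairpins, shRNA3 minus shRNA1, in log2(FPKM + 1) with its 95% interval for the 39 tested members, coloured by role; filled points passed the threshold. Filament genes such as Tpm1 (0.50) and Cnn2 (0.49) fill most of the upper end, where the turnover gene Wdr1 (0.39) also lies. The turnover genes Tmsb10 (-0.55) and Pfn1 (-0.45) are the lowest. Genes of other roles, such as Rhob (-0.38), Ezr (-0.32) and Tpm3 (-0.31), share the lower end with them.

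The members' calls gave 9 genes higher with each hairpin and with no difference called between them (Actb, Capg, Diap1, Fscn1, Myh9, Myh10, Myl6, Rhoa and Tpm4). A further 8 were higher with each hairpin and higher again with shRNA3 (Actg1, Actn1, Cnn2, Flnc, Gsn, Myl12a, Myl12b and Tagln2), and 3 were higher with each and lower with shRNA3 than with shRNA1 (Arpc5, Msn and Rhob). For 5 the rise was called with shRNA3 but not with shRNA1 and the hairpins differed (Actn4, Cald1, Cnn3, Tpm1 and Wdr1). For 7 the rise was called with shRNA1 but not with shRNA3 and the hairpins differed (Arpc2, Cdc42, Cfl1, Ezr, Mylk, Rac1 and Tmsb4x). Tpm3 and Tmsb10 were called in opposite directions. Flna, Mkl1 and Rhoc passed in no comparison of the fit used throughout. The grouping is that of this fit, and under other scalings Cfl1, Ezr, Arpc2, Rac1, Flna and Rhoc, among others, would be placed elsewhere, as given with each gene.

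Genes of the same pathways that are not members were read in the same fit. Of 20 further SRF and MRTF genes 15 were tested: over both hairpins 10 rose and none fell, beside 24.1% higher and 25.9% lower among all genes, with a median log2 change of 0.42 beside -0.01. With shRNA3 against shRNA1 10 were higher and 1 lower, beside 22.0% and 20.5% of all genes. Vcl (vinculin, of focal adhesions) had 67.9 and 69.6 FPKM with shRNA1 and 84.9 and 89.6 FPKM with shRNA3, against 40.7 and 38.2 FPKM in WT cells, a log2 change over both of 0.96 ± 0.044 (limma adjusted p = 3.14e-06). Filip1l and Pdlim5 rose by 0.72 and 0.67 (adjusted p = 3.19e-05 and 2.08e-05). Srf had 18.3 and 19.6 FPKM with shRNA1 and 26.3 and 26.0 FPKM with shRNA3, against 16.1 and 16.6 FPKM in WT cells. Its 3 groups were separate: it rose by 0.20 with shRNA1 (adjusted p = 0.0249) and 0.64 with shRNA3 (adjusted p = 5.58e-05), and the hairpins differed by 0.45 (adjusted p = 6.36e-04). Of the 17 genes of this list with a RefSeq window 8 (47.1%) held a CArG box. The list was chosen as SRF and MRTF genes, so this share carries no test. Of the 8, Srf, Vcl, Filip1l, Fhl2 and Lima1 were called higher over both hairpins. Trip6 was not called (-0.04, limma adjusted p = 0.44). Fhl1 was at 0 FPKM in every library, and Vil1 reached at most 0.094 FPKM.

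Of 15 other genes of the Arp2/3 and WAVE complexes 4 (26.7%) rose over both hairpins and none fell. The share that rose was near the 24.1% of all genes called higher, and the median change was 0.06. The called changes with the largest size were those of Cttn (0.24), Actr2 (0.15) and Arpc3 (0.15). With shRNA3 against shRNA1 1 of them was higher and 6 lower, beside 22.0% and 20.5% of all genes. The calls of Actr2 and Arpc3 over both hairpins were each lost without certain single libraries, with adjusted p up to 0.208 for Actr2 and 0.139 for Arpc3 in limma, and under quantile normalization (0.12 and 0.11, adjusted p = 0.0855 and 0.0814) and at the same total (0.09 in both, adjusted p = 0.215 and 0.124). The call of Cttn was lost with the 4 knockdown libraries as 1 group (adjusted p = 0.0513).

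Of 21 tested genes among 24 other turnover and capping genes 13 rose and 2 fell, beside 24.1% and 25.9% of all genes, with a median change of 0.19. Lcp1 (the bundler plastin 2) rose by 0.65 (limma adjusted p = 2.75e-04) and Dstn (destrin, a relative of cofilin) by 0.43 (adjusted p = 8.70e-05). Marcksl1 fell by 0.44 (adjusted p = 1.79e-04); it had 78.2 and 81.2 FPKM with shRNA1 and 46.7 and 42.9 FPKM with shRNA3, against 80.0 and 82.8 FPKM in WT cells, with the shRNA3 libraries far below WT and the shRNA1 libraries overlapping it. Of 11 tested genes among 12 other myosins 6 rose and none fell, beside the same shares of all genes and with a median of 0.15. The largest called changes were those of Myo10 (the filopodial myosin) at 0.50 (adjusted p = 2.75e-04), Myo1c at 0.33 (adjusted p = 5.14e-04) and Myh14 at 0.36 (adjusted p = 0.0284). Myh14, the third non-muscle heavy chain, stood at 1.55 to 3.40 FPKM, and its call was lost without WT replicate 1 (0.29, adjusted p = 0.154), WT replicate 2 (0.43, adjusted p = 0.0546), shRNA1 replicate 2 (0.31, adjusted p = 0.0651) or shRNA3 replicate 2 (0.30, adjusted p = 0.0744). With the 4 knockdown libraries as 1 group the calls of Lcp1, Marcksl1 and Myh14 were lost (adjusted p = 0.0908, 0.312 and 0.247). Between the hairpins, 5 of the 21 turnover and capping genes were higher and 6 lower with shRNA3, with a median of -0.03. Of the 11 other myosins 2 were higher and 1 lower, with a median of -0.02. All genes gave 22.0% higher and 20.5% lower. The uneven split of the turnover members was thus not seen in this wider turnover list. Among the 15 other Arp2/3 and WAVE genes, where 1 was higher and 6 lower, the median was -0.16, beside -0.18 for the turnover members.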

How the data were processed

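Stranded messenger RNA libraries were made from column-purified total RNA of 4T1 cells, per the labels' protocols. The authors deposited a table of symbols and values for each library, with no unit. The deposited values were taken as FPKM because Cufflinks 2.2.1 is among the tools in the submitters' processing notes, beside TopHat2 2.0.13, Bowtie2 2.2.3, SAMtools 0.1.19 and mm10. No label states roles, options, the annotation or how reads matching several genes were handled. FPKM is relative to a library's own total.

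Groups came from the sample titles. Values were transformed to log2(FPKM + 1), so changes of low genes are understated. The 11079 genes averaging 1 FPKM or more were fitted over all 6 libraries as a means model of the 3 groups in R 4.3.3 by limma 3.58.1, with a trend in the prior variance, 3 residual and 4.96 prior degrees of freedom. Tests were two-sided, Benjamini-Hochberg adjusted over all genes tested, with a threshold of 0.05. Intervals are limma's at 95%. Without counts in the files no count test was run, and absolute depth is unknown.

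Members and gene lists were chosen with earlier results of these data known, and counts over a list have no test. Library values are given for members with a log2 change of 0.5 or more, all actins and tropomyosins and the 2 most abundant genes of each role, and for others where they left the direction of their role. Of each further list the 3 largest called changes are named. Srf, Smtn and the marker genes are named outside this rule.

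In simulated data 200 of 11079 genes were changed. The comparison of both hairpins with WT recovered 92% of changes of 0.5 and 100% of changes of 1 and 2 on the log2 scale. Of its calls, 5.88% were unchanged genes. The simulation gave both hairpins the same change and each library independent noise. In the data 50.0% of genes passed over both hairpins and 42.5% between them, so these rates need not hold for the calls reported. Positions are from GENCODE M21 on GRCm38, the assembly of mm10. Promoter windows are from RefSeq on GRCm38.p6. Shared stretches were counted over the annotated transcripts of other genes. Tables were handled in Python 3.11.15 (NumPy 2.4.6, pandas 2.3.3) and figures drawn in matplotlib 3.10.9. Alternatives were other pseudocounts (0.1 and 0.5), filters at a mean of 5 FPKM or none, quantile, median-of-ratios and same-total scaling, the replicate number as a block, each library left out, the 4 knockdown libraries as 1 group and fits of only the 2 groups compared. Mitochondrial transcripts and protein sequences were not analysed here, and 1 further list fitted with the others is not reported here.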

Additional observations from a re-analysis of the deposited data

Results flagged for a closer look

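In 26 of the 39 tested members the effects of the 2 hairpins against WT differed by the test of the difference itself (shRNA3 minus shRNA1, limma adjusted p under 0.05, log2 scale), where 42.5% of all genes tested passed. Filament genes made up most of the higher side, with Tpm1 at 0.50, Cnn2 at 0.49, Flnc at 0.31, Cnn3 and Myl12a at 0.26, Actg1 and Actn4 at 0.24, Actn1 and Myl12b at 0.22, Cald1 at 0.19 and Tagln2 at 0.14. The turnover genes Wdr1, at 0.39, and Gsn, at 0.15, were also higher with shRNA3. On the lower side were the turnover genes Tmsb10 at -0.55, Pfn1 at -0.45, Cfl1 at -0.31, Arpc2 at -0.22, Arpc5 at -0.20 and Tmsb4x at -0.17. The GTPase genes Rhob, Rac1 and Cdc42 stood at -0.38, -0.23 and -0.22, the membrane linkers Ezr and Msn at -0.32 and -0.18, Tpm3 at -0.31 and Mylk at -0.28. Tpm3 and Tmsb10 were called in opposite directions against WT. The call of Tpm3 with shRNA1 was lost without any of 3 single libraries and under quantile normalization or same-total scaling, and that of Tmsb10 with shRNA3 without any of 5 single libraries. At the same total Cfl1, Ezr and Arpc2 were called in opposite directions too.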

How the results depend on the processing

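Of the members' calls, 12 of 26 over both hairpins, 17 of 30 with shRNA1, 21 of 29 with shRNA3 and 22 of 26 between the hairpins were kept under every alternative run. Over both hairpins the count of members lower, 1, became 2 with a pseudocount of 0.1, a mean of at least 5 FPKM, quantile normalization, same-total scaling or shRNA1 replicate 1 left out, and 0 without WT replicate 1 or with the 4 knockdown libraries as 1 group. That last fit, in which the difference between hairpins enters the spread, called 1513 genes, with 12 members higher. The members' median over both hairpins, 0.19, was 0.24 with a pseudocount of 0.1, 0.21 with 0.5 or a mean of at least 5 FPKM, 0.16 under quantile normalization and 0.14 at the same total. With shRNA1 it was 0.23 without a filter, 0.16 under quantile normalization (19 members higher) and 0.19 at the same total. With shRNA3 it was 0.23 without a filter and 0.12 at the same total, and 8 members were lower under quantile normalization and 9 at the same total. Between hairpins the median was 0.02 without a filter and under quantile normalization. Same-total scaling moved the median of all genes by -0.05 to -0.07 for the comparisons with WT. Tmsb4x turned under quantile normalization, to -0.02 over both hairpins (limma adjusted p = 0.712) and -0.13 with shRNA3 (adjusted p = 0.043). The causes were not tested.

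With single libraries left out, where a lone library is assumed to vary like the other groups, genes called ranged from 3914 to 5029 over both hairpins, 2604 to 3682 with shRNA1, 4830 to 5992 with shRNA3 and 3222 to 4592 between hairpins. Members higher and lower ranged from 23 to 26 and 0 to 2, from 22 to 29 and 0 to 0, from 22 to 25 and 3 to 4, and from 11 to 13 and 11 to 12 in the same order. The medians ranged from 0.20 to 0.22, 0.23 to 0.28, 0.19 to 0.24 and -0.02 to 0.02. Deviations of same-numbered libraries correlated at 0.025 for shRNA1 and WT and -0.12 for shRNA3 and WT, but at 0.29 for shRNA3 and shRNA1. Same-numbered hairpin libraries thus deviated together in part, and the fit used throughout has no block for this. With the replicate number as a block, members higher and lower were 25 and 1 over both hairpins, 26 and 0 with shRNA1, 24 and 4 with shRNA3, and 11 and 11 between hairpins. Absolute depth is not known, so the smallest change that the low members could show cannot be given.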
